A study of Mus musculus with 4 samples.

Results

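The regions described here are MIZ-1 ChIP-seq peaks whose summit lay inside protein-coding sequence and which were not at a promoter. They were chosen by position and sequence alone: the summit had to lie in a coding exon of a protein-coding GENCODE basic transcript, the peak could not cover its nearest transcript start or lie within 2000 bp before or 1000 bp after it, and the 201 bp window around the summit had to hold at least 40% GC and at most 50% soft-masked (repeat-annotated) bases. Of 112566 peaks in both lists, 4514 met this rule. These were 913 of 34209 MIZ-1WT peaks (2.67%, 95% Wilson interval 2.503 to 2.845) and 3601 of 78357 MIZ-1DPOZ peaks (4.596%, 4.451 to 4.744). They are called coding-exon peaks below. They fell at 4038 separate positions and in 3008 of 21899 protein-coding genes, with 811 genes in the MIZ-1WT list, 2773 in the MIZ-1DPOZ list and 576 in both.

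Chromatin was immunoprecipitated with the MIZ-1 antibody H-190 from B220+ splenocytes, that is spleen cells selected for a B cell surface marker. MIZ-1WT libraries came from mice of wild-type genotype. MIZ-1DPOZ libraries (genotype Miz-1 delta POZ) came from mice with a floxed POZ exon of Miz-1 and an MB1-Cre allele. The Cd79a promoter drives that Cre, which is active in B cells and removes the POZ domain there, leaving a truncated protein. All lines were on a C57BL/6 background, and the labels do not say whether the wild-type mice carried Cre. Each genotype had 1 ChIP library and 1 input library, so no difference between genotypes had a replicate check, and intervals given here cover counting error only. B220 selection takes the splenic B cell subsets together, so a different mix of cells and a different signal per cell cannot be told apart in these bulk libraries.

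MIZ-1, the product of Zbtb17, is a transcription factor with a POZ domain, through which it associates with itself and other proteins, and a row of zinc fingers that contact DNA. It is best known at promoters, where it activates genes alone and represses them with MYC. A coding exon differs from a promoter in being transcribed and constrained by the protein it encodes, and mammalian coding sequence is on average richer in G and C than introns. A ChIP-seq peak marks a stretch where sequenced fragments pile up above a local background, and it does not by itself show a protein bound at that base.

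The windows of 201 bp around 9 summits are printed first, because base composition runs through the results that follow. Coordinates are mm10, each sequence is written 5′ to 3′ on the coding strand of its gene, and capitals mark coding bases of the transcript used. Dact1, Mboat7 and Rapgef2 held the strongest peaks found in both lists outside Sfi1, Ssbp4 stood among the strongest found in MIZ-1WT alone, and Casc3 and Sprr1b among the strongest found in MIZ-1DPOZ alone. Satb1, Nfatc2 and Zbtb17 were taken from the lists of transcription factor and B cell genes.
Dact1, chr12:71318348-71318548, + strand: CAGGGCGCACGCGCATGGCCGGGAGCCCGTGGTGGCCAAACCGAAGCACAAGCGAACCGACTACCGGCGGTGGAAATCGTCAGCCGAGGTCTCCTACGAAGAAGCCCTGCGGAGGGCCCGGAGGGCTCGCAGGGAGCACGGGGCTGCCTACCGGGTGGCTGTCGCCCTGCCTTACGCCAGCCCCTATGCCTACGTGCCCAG
Mboat7, chr7:3685605-3685805, - strand: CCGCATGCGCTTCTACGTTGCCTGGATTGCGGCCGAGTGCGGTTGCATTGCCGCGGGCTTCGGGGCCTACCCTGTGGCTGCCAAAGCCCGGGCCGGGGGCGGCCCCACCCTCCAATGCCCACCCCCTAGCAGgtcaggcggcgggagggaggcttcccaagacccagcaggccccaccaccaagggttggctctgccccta
Rapgef2, chr3:79066522-79066722, - strand: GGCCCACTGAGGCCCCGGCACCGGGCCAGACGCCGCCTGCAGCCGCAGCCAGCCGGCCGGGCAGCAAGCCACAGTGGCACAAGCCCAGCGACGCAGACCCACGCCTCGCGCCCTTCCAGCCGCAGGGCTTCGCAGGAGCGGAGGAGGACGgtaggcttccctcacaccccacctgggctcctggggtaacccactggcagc
Ssbp4, chr8:70597878-70598078, - strand: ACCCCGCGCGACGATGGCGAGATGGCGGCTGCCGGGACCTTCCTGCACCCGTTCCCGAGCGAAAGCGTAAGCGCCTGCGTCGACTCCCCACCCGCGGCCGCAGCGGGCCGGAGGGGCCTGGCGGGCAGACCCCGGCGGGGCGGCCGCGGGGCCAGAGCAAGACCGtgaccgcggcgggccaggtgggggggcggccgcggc
Casc3, chr11:98831288-98831488, + strand: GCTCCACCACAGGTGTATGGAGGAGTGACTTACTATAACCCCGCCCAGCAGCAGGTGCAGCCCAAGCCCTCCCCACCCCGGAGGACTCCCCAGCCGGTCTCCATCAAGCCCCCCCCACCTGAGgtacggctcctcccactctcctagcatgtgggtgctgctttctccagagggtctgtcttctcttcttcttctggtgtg
Sprr1b, chr3:92437243-92437443, - strand: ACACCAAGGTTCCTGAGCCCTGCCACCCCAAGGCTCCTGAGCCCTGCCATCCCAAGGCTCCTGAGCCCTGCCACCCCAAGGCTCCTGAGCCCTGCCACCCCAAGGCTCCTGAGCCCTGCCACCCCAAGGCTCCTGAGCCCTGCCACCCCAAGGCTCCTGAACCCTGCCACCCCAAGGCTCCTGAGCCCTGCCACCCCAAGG
Satb1, chr17:51740262-51740462, - strand: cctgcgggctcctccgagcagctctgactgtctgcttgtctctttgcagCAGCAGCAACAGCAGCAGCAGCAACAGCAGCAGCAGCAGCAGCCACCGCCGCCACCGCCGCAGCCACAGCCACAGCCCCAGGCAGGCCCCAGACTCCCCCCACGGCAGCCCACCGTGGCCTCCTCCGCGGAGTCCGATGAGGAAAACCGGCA
Nfatc2, chr2:168570894-168571094, - strand: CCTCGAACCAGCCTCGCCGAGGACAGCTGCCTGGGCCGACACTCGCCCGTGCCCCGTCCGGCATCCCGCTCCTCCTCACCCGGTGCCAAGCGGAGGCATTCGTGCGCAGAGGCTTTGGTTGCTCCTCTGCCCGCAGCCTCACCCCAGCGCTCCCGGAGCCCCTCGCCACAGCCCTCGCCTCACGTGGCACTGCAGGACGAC
Zbtb17, chr4:141463682-141463882, + strand: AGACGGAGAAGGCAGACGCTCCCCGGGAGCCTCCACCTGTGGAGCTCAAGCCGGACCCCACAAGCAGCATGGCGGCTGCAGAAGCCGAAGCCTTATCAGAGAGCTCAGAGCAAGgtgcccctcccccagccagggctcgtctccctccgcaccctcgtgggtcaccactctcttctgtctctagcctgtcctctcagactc

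The 9 windows were rich in GC, from 61.7% in Casc3 to 79.6% in Ssbp4, while their CpG dinucleotides ranged from 0 in Sprr1b to 32 in Ssbp4. The window of Sprr1b, which encodes a proline-rich protein of the cornified envelope of skin, was a tandem repeat, and 96.7% of bases equalled the base 48 positions further on. Satb1, which encodes a chromatin organiser of lymphocytes, carried a run of CAG and CAA triplets next to the splice site.

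Coding-exon peaks were shallow in both libraries. The summit pileup is the number of fragments stacked at the summit. Its median was 9 in MIZ-1WT (quartiles 8 and 10, range 5 to 80) and 11 in MIZ-1DPOZ (quartiles 10 and 14, range 6 to 177), in a library 1.34 times as deep by the most frequent background per base. The fold enrichment over the local background had a median of 4.84 (quartiles 4.30 and 5.38) in MIZ-1WT and 4.68 (4.19 and 5.54) in MIZ-1DPOZ. Only 5 MIZ-1WT peaks and 17 MIZ-1DPOZ peaks reached a pileup of 30, which is 0.548% and 0.472% of the peaks. Peaks in introns that met the same GC, masking and promoter limits had the same median pileups of 9 and 11, with median folds of 5.06 and 4.93. The peaks were also narrow, with a median width of 168 bp in MIZ-1WT, where the narrowest peak in the list had 148 bp, and 215 bp in MIZ-1DPOZ, where the narrowest had 173 bp.

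**Figure D1:**
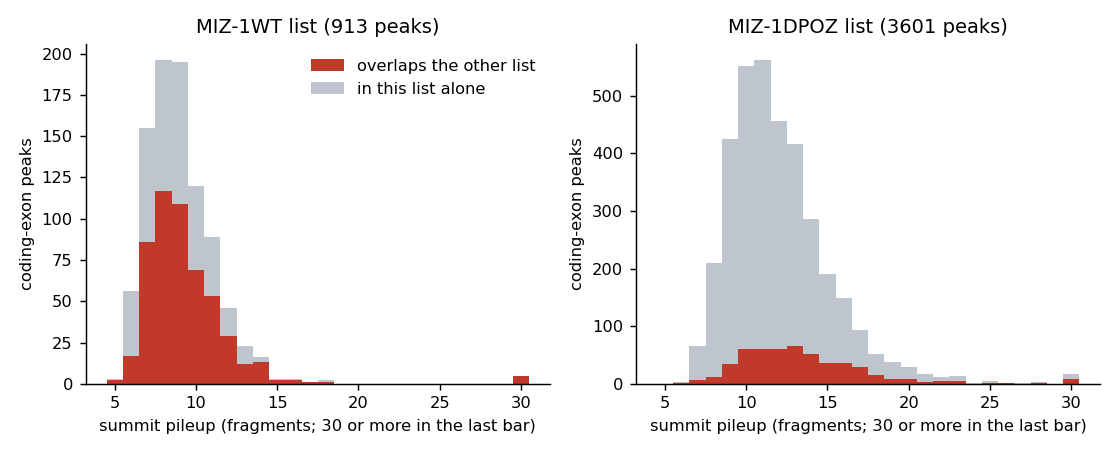
Number of coding-exon peaks (y axis) at each summit pileup in fragments (x axis) in the MIZ-1WT list (left) and the MIZ-1DPOZ list (right), with pileups of 30 or more in the last bar; red bars are peaks that overlap a peak of the other list and grey bars those that do not. Most peaks sit close to the lowest pileups called, around medians of 9 and 11, and the red share is small in the MIZ-1DPOZ list.

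The peaks concentrated in the small part of coding sequence with the highest GC. Median window GC was 65.7% in MIZ-1WT (quartiles 62.7 and 69.2, n = 913) and 63.2% in MIZ-1DPOZ (60.7 and 66.2, n = 3601), against 51.7% (46.8 and 56.2) in windows at the midpoints of 138991 coding exons filtered in the same way. Coding sequence with 65% GC or more made up 2.80% of the 24.9 Mb of eligible coding sequence, and it held 56.4% of MIZ-1WT coding summits and 34.0% of MIZ-1DPOZ coding summits. Coding sequence with 60% GC or more made up 12.7% and held 92.6% and 82.6%. The GC limit of the rule itself removed 2 peaks from each list, and the masking limit 10 and 23.

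Over all GC classes together, coding exons were far more densely covered than other sequence, whereas within single GC classes the coding density ran from 0.0982 to 1.24 times that of introns. The density counts every eligible summit at a non-promoter base (933 in MIZ-1WT and 3670 in MIZ-1DPOZ). In MIZ-1WT it was 37.4 summits per Mb of coding sequence (95% Poisson interval 35.04 to 39.88), 4.99 per Mb of intron and 4.21 per Mb of intergenic sequence. In MIZ-1DPOZ it was 147 (142 to 152), 17.8 and 15.1. Coding sequence thus had 7.50 and 8.27 times the density of introns.

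Between 60% and 65% GC, MIZ-1WT density was 136 per Mb in coding sequence (122 to 152) and 132 in introns (122 to 143), and MIZ-1DPOZ density was 720 (687 to 754) and 695 (672 to 720), so the counting intervals overlapped. At 65% GC or more, coding sequence had the lower density in both lists: 754 per Mb (691 to 821) against 914 (844 to 988) in introns for MIZ-1WT, and 1786 (1689 to 1888) against 2126 (2020 to 2237) for MIZ-1DPOZ. This class has no upper limit, and GC within it was not compared between coding sequence and introns. Between 55% and 60% the lists differed in direction: the coding density was 10.0 per Mb (7.59 to 12.98) against 14.4 (13.1 to 15.8) in MIZ-1WT, and 99.6 (91.6 to 108) against 80.3 (77.2 to 83.6) in MIZ-1DPOZ. With peaks limited to −log10 q values of 5 or more, MIZ-1DPOZ densities in this class were 35.5 (30.8 to 40.7) and 35.2 (33.2 to 37.4), so that excess was lost. Of the coding summits, 931 of 933 and 3662 of 3670 lay at 50% GC or more. If each GC class of coding sequence had the density of introns of that class, 1081 MIZ-1WT and 3743 MIZ-1DPOZ summits would lie there, and the counts in the lists were 0.863 and 0.981 times these. With intergenic densities the ratios were 0.713 and 0.775. Among peaks with a −log10 q of at least 5, the ratios fell to 0.564 and 0.792 with intron densities and 0.417 and 0.565 with intergenic densities. What in the library preparation, sequencing or chromatin moved with GC was not tested.

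**Figure D2:**
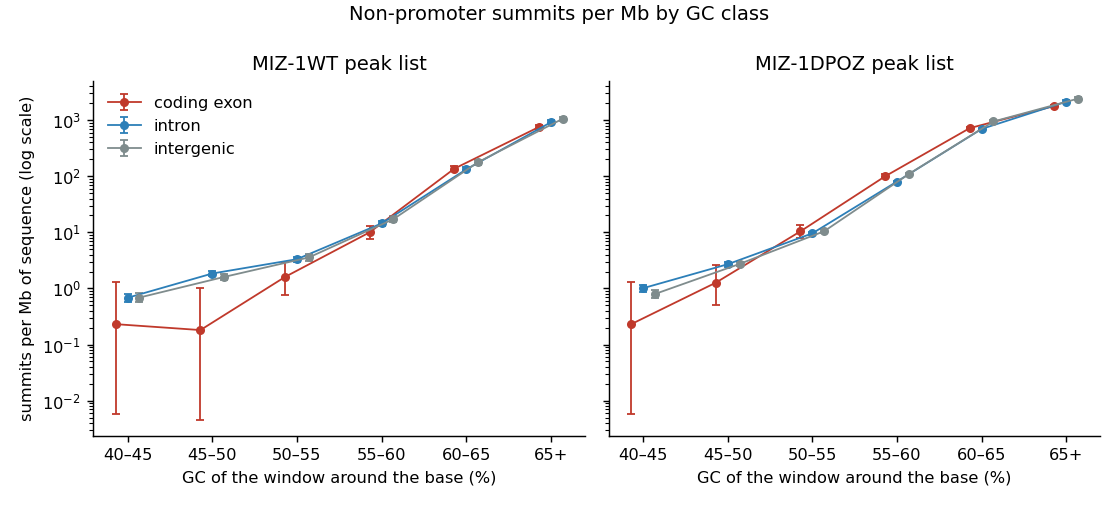
Non-promoter summits per Mb of sequence (y axis, log scale) by GC of the 201 bp window around each base (x axis, %), for coding exons (red), introns (blue) and intergenic sequence (grey) in each list; bars are 95% Poisson intervals. In every kind of sequence density rises steeply with GC, and at 65% GC or more coding exons lie at 754 and 1786 per Mb, below introns at 914 and 2126.

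The promoter rule itself bounds the distance from a peak to its nearest start site. The smallest distances were 1010 bp in MIZ-1WT and 1000 bp in MIZ-1DPOZ. The median was 7991 bp in MIZ-1WT (quartiles 3784 and 17055) and 8553 bp in MIZ-1DPOZ (4074 and 17725). Distances for eligible coding sequence as a whole were not measured, so these medians have no comparison. Along the coding sequence, the median summit stood at 59.35% and 59.34% of its length, and the promoter rule removes summits near the 5′ end. The window was wholly coding in the median MIZ-1WT peak (100%, quartiles 75.1 and 100) and nearly so in MIZ-1DPOZ (median 96.0%, quartiles 69.2 and 100). Genes on the plus strand held 48.0% (44.7 to 51.2) of MIZ-1WT and 49.6% (47.9 to 51.2) of MIZ-1DPOZ peaks. Under the larger comprehensive annotation, which adds partial and noncoding transcripts, 23.7% (21.0 to 26.5) of MIZ-1WT and 23.3% (21.9 to 24.7) of MIZ-1DPOZ coding-exon peaks would count as at a promoter. Among the genes named below, this holds for the peak chosen for naming in Sfi1, Mboat7, Spata13, Ssbp4, Clasrp and Myh14. It also holds for that of Nod1, Zbtb17, Zfp513, Kdm2b, Celsr3, Lrp8 and Cacna1i.

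Internal coding exons held 57.1% (53.8 to 60.2) of MIZ-1WT and 63.1% (61.5 to 64.6) of MIZ-1DPOZ peaks, last coding exons 28.6% and 24.5%, first coding exons 7.56% and 6.50%, and single-exon coding sequences 6.79% and 5.94%. With 1 transcript per gene, last coding exons carried 62.6 MIZ-1WT peaks per Mb and internal ones 27.7, and in MIZ-1DPOZ 211 and 121. Within sequence of 60% to 65% GC these came to 136 and 134 per Mb in MIZ-1WT, and to 732 and 717 in MIZ-1DPOZ. At 65% GC or more the lists differed in direction, with 804 and 742 in MIZ-1WT and 1706 and 1903 in MIZ-1DPOZ. First and single-exon coding sequences were lower there, at 532 and 573 in MIZ-1WT and 1289 and 1310 in MIZ-1DPOZ.

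Density also rose with exon length up to 1000 bp, from 10.2 per Mb in exons with under 100 coding bp to 87.8 in exons of 400 to under 1000 bp in MIZ-1WT, and from 46.4 to 285 in MIZ-1DPOZ. Between 60% and 65% GC a rise remained, from 67.4 to 167 per Mb in MIZ-1WT and from 510 to 821 in MIZ-1DPOZ. At 65% GC or more the same classes had 912 and 803 per Mb in MIZ-1WT and 1915 and 1747 in MIZ-1DPOZ, where the shortest exons held only 10 and 21 peaks. Exons of 1000 bp or more had a lower density than the class before, 55.6 per Mb in MIZ-1WT and 171 in MIZ-1DPOZ (129 and 608 at 60 to 65% GC), and held 23.8% and 18.8% of the peaks.

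**Figure D3:**
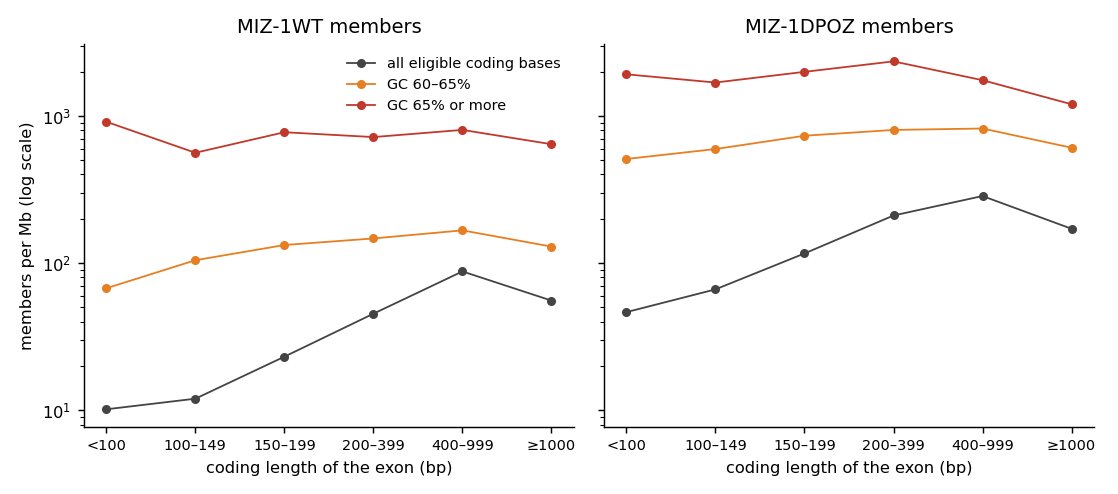
Coding-exon peaks per Mb of eligible coding sequence (y axis, log scale) by coding length of the exon (x axis, bp), for all eligible bases (dark), bases with 60 to 65% GC (orange) and bases with 65% GC or more (red), in each list. The dark line rises from 10.2 to 87.8 (MIZ-1WT) and from 46.4 to 285 (MIZ-1DPOZ) up to exons of 400 to under 1000 bp, while the red line stays between 561 and 912, and between 1199 and 2345.

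The question behind the pair of libraries is which sites are called with the POZ domain present and absent. Of 913 MIZ-1WT coding-exon peaks, 518 overlapped a MIZ-1DPOZ peak by at least 1 bp (56.7%, Wilson 53.5 to 59.9), beside 53.7% of all MIZ-1WT peaks. Of 3601 MIZ-1DPOZ coding-exon peaks, 510 overlapped a MIZ-1WT peak (14.2%, 13.1 to 15.3), beside 22.1% of all MIZ-1DPOZ peaks. The overlapping peak of the other list was itself a coding-exon peak for 466 of the 518 and 463 of the 510. With equal numbers of peaks, taking the strongest 34209 of each list by p-value, the shares became 24.97% and 20.4%.

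Overlap rose with GC as density did. MIZ-1WT coding-exon peaks overlapped the other list at 14 of 56 positions (15.5 to 37.7%) at 55 to 60% GC, 49.0% (43.6 to 54.3, n = 335) at 60 to 65% and 66.7% (62.5 to 70.6, n = 510) at 65% or more. MIZ-1DPOZ coding-exon peaks did so in 3.57% (2.32 to 5.44), 9.66% (8.37 to 11.1) and 26.3% (23.9 to 28.9). Pooled over GC, MIZ-1WT coding-exon peaks overlapped more often than intron peaks (56.7% against 43.6%, 41.7 to 45.6), but at 65% GC or more they did so in 66.7% against 72.4% (68.7 to 75.8), and at 60 to 65% in 49.0% against 50.7% (46.8 to 54.7), with overlapping intervals in both classes. In both lists the shared coding-exon peaks had higher GC than the unshared ones, with medians of 66.7% and 64.2% in MIZ-1WT and 66.2% and 62.7% in MIZ-1DPOZ. Shared and unshared peaks both had a median pileup of 9 in MIZ-1WT, and 13 and 11 in MIZ-1DPOZ. In MIZ-1DPOZ the overlapping share rose with pileup, from 6.83% (4.42 to 10.4, n = 278) at up to 8 fragments to 27.3% (23.3 to 31.8, n = 417) at 16 to 29 and 9 of 17 at 30 or more.

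**Figure D4:**
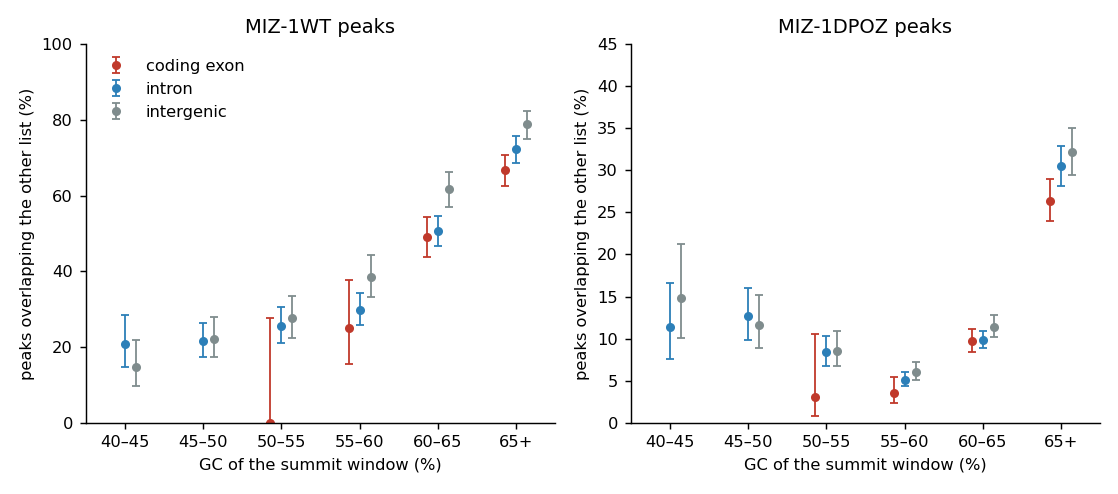
Share of peaks (y axis, %) that overlap a peak of the other list, by GC of the summit window (x axis, %), for peaks in coding exons (red), introns (blue) and intergenic sequence (grey), with 95% Wilson intervals and classes of at least 10 peaks; the y axes differ between the panels. Coding-exon peaks reach 66.7% in MIZ-1WT (left) and 26.3% in MIZ-1DPOZ (right) at 65% GC or more, and do not exceed introns in any class shown.

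At shared positions the pileups of both libraries can be set side by side. There were 549 pairs of mutually nearest overlapping peaks with at least 1 coding-exon peak, and the MIZ-1DPOZ pileup divided by the MIZ-1WT pileup and by the depth ratio of 1.34 had a median of 0.11 on the log2 scale (quartiles -0.18 and 0.40, range -1.08 to 1.58), with 223 pairs lower in MIZ-1DPOZ. Over all 17119 pairs of both lists, the median was 0.35. The median of the coding-exon pairs changed sign, to -0.12, when the ratio of backgrounds was used for scaling. An exact binomial interval of the ratio lay above 1 for 9 of the 549 coding-exon pairs and below 1 for 0, where 25.3% and 1.25% of all pairs did so. For intron pairs these counts were 79 and 6 of 993, with a median of 0.16. With the ratio of backgrounds, 1.57, every ratio and bound would be lower, and these counts were not taken again at that scaling. The interval holds the depth ratio fixed at 1.34 and compares the libraries, not the genotypes. It is wide at such pileups: beside a MIZ-1WT pileup of 9, a MIZ-1DPOZ pileup had to be at least 27 or at most 3 for the interval to leave out 1.

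The genes with the highest ratios, scaled by the depth ratio of 1.34, were few. Hs3st3b1 and Hs3st3a1, paralogs that encode heparan sulfate 3-O-sulfotransferases, had pileups of 7 and 8 in MIZ-1WT and of 28 each in MIZ-1DPOZ, ratios of 2.98 (95% interval 1.27 to 8.09) and 2.61 (1.16 to 6.63). Their summit sequence occurs at 2 places in the genome, so reads from either gene cannot be told apart there. Alk, a receptor tyrosine kinase gene, had 7 and 23 in single-copy sequence (2.45, 1.02 to 6.76). Clca3b, of the chloride channel accessory family, had 12 and 36 (2.24, 1.14 to 4.72) in a window that occurs 14 times, and Eppk1, which encodes the plakin epiplakin, 18 and 54 (2.24, 1.29 to 4.05) in a window with 2 copies. The local background in Eppk1 was 3.29 in MIZ-1WT and 8.70 in MIZ-1DPOZ, and the folds over it were 4.43 and 5.67. The other 4 were a further Eppk1 position and 3 positions of Sfi1. All 9 pairs with a mean pileup of 25 or more were higher in MIZ-1DPOZ after scaling (median 0.66 on the log2 scale), and 6 of these were in Sfi1 and the others in Eppk1. The local background was also higher in MIZ-1DPOZ at these pairs: the fold over background in MIZ-1DPOZ was 0.882 to 1.28 times that in MIZ-1WT, and at 1 Sfi1 pair it was the lower, 2.56 against 2.90.

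**Figure D5:**
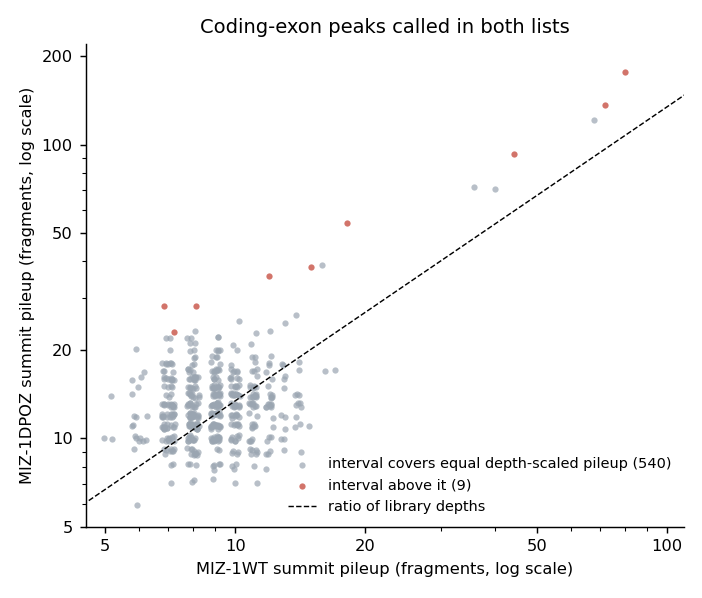
Summit pileup in fragments in the MIZ-1DPOZ list (y axis, log scale) against the MIZ-1WT list (x axis, log scale) for the 549 pairs of overlapping peaks, with small random shifts so that equal values can be seen; the dashed line is the ratio of library depths, 1.34. The cloud of low pileups straddles the line, and the 9 red pairs, whose interval excludes it, lie above.

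Among peaks in both lists with single-copy summits, Sfi1 ranked first. Sfi1 encodes a centrin-binding protein of the centrosome. Its peak at chr11:3135560-3135800, in coding exon 25 of 32, had a pileup of 80 in MIZ-1WT and its partner at chr11:3135472-3135841 had 177 in MIZ-1DPOZ, but the local background there was 21.7 and 41.1 fragments, against most frequent values of 0.860 and 1.35, so the folds were 3.57 and 4.23. All 12 Sfi1 coding-exon peaks had pileups of 40 or more, and they fell at 8 positions. That elevated background accompanied every one of them, and its part in the calls was not tested.

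The remaining peaks of this group had ordinary backgrounds. Dact1, which encodes an inhibitor of Wnt signalling through Dishevelled, had a pileup of 17 in each list (chr12:71318256-71318583 in MIZ-1WT, last of 4 coding exons), folds of 9.17 and 7.67 and 21 CpG in the window. Mboat7, a lysophospholipid acyltransferase gene, had 13 and 18 in coding exon 5 of 7. Rapgef2, an exchange factor for Rap GTPases, had 13 and 25 in coding exon 29 of 30. Akap3, a protein kinase A anchor of sperm, and Spata13, a guanine nucleotide exchange factor, each had 13 and 16. Scaled for depth, none of these 5 differed beyond its counting interval; the ratios ran from 0.746 (0.358 to 1.55) in Dact1 to 1.43 (0.707 to 3.05) in Rapgef2.

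Of the 395 MIZ-1WT coding-exon peaks with no MIZ-1DPOZ peak, the strongest in single-copy sequence had pileups of 13 to 18. Ssbp4, a single-stranded DNA binding protein gene, had a pileup of 18 over a background of 2.00 at chr8:70597730-70598246. Lrrk1, a leucine-rich repeat kinase gene, had 13, Clasrp, a regulator of splicing, 15, and Myh14, a nonmuscle myosin heavy chain gene, 14. Hdac5, a class II histone deacetylase gene, and Hspg2, the gene of the basement membrane proteoglycan perlecan, had 13 each. The −log10 q of these 6 ran from 6.95 to 8.15.

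The strongest of the 3091 MIZ-1DPOZ coding-exon peaks with no MIZ-1WT peak reached higher scores, in the deeper library. Sp110, an interferon-inducible nuclear body gene, led with a pileup of 61 over a raised background of 13.2. Bag4, an Hsp70 co-chaperone gene, Casc3, of the exon junction complex, and Sprr1b had 23 each over the most frequent background of 1.35, a fold of 10.2. Prpf40b, a splicing factor gene, had 23, and Zfp618, a zinc finger gene, 22. Their −log10 q ran from 16.8 to 18.4. The lists hold no overlapping MIZ-1WT peak at these places, so no ratio can be given, but a MIZ-1WT coding-exon peak with a pileup of 6 lay directly beside the Zfp618 peak.

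Coding-exon peaks were spread thinly over genes, with 734 of 811 genes holding 1 peak in MIZ-1WT and 2177 of 2773 in MIZ-1DPOZ. Of the genes with the most positions, Sfi1 had 8, and Setd1b, a histone H3 lysine 4 methyltransferase gene, and Sptbn4, a spectrin gene, had 7 each. Setd1b had 5 MIZ-1WT and 4 MIZ-1DPOZ peaks, with pileups of 9 to 15 and GC of 62.2 to 71.1%, all in single-copy sequence. Cacna1i, a T-type calcium channel gene, had 6 positions with 3 peaks in each list.

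Gene families differed in how many of their genes held a coding-exon peak. Beside 3.70% of all protein-coding genes in MIZ-1WT and 12.7% in MIZ-1DPOZ, the large cytoskeletal linker and motor genes had 11 and 20 of 35, the collagen chain genes 6 and 24 of 44, and the laminin and Notch family genes 5 and 17 of 39. These are long genes, and per Mb of coding sequence they held 40.9, 35.5 and 22.3 MIZ-1WT peaks and 114, 193 and 130 MIZ-1DPOZ peaks, beside 26.0 and 103 over all genes. Developmental transcription factors are short. Homeobox and POU genes had 11 and 39 of 155 (67.4 and 236 per Mb), and forkhead and SOX genes 5 and 23 of 63 (56.1 and 348 per Mb). C2H2 zinc finger genes, the family to which Zbtb17 itself belongs, had 45 and 92 of 536 (51.5 and 124 per Mb). Densities of gene lists, here and below, are per Mb of all their coding sequence and have no intervals. They were not computed within GC classes, so the part of GC in these differences was not tested.

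Examples carried the same low pileups. Satb1 had 8 in MIZ-1WT and 23 in MIZ-1DPOZ, a ratio of 2.14 (0.926 to 5.54), and Nkx2-4, a homeobox gene, 9 and 17. Sox4 and Foxo3, transcription factor genes, had 21 each in MIZ-1DPOZ alone. Col6a3 and Col1a2, which encode collagen chains, had 23 and 20 in MIZ-1DPOZ alone, and Zfp513 had 10 and 25 in the lists. The Col6a3 summit sequence occurs at 2 places in the genome, and 67.2% of its window equalled the base 15 positions further on. Lrp8, a lipoprotein receptor gene, had 14 in MIZ-1WT and 12 in MIZ-1DPOZ. Chromatin regulator genes had 13 and 44 of 112 with a peak (11.6% and 39.3%), and 37.1 and 150 peaks per Mb of coding sequence. All protein-coding genes had 3.70% and 12.7%, and 26.0 and 103 per Mb. Of the chromatin regulators, Kdm2b, a histone demethylase gene, had 16 in MIZ-1DPOZ alone, and Smarca2, a remodelling ATPase gene, 9 and 16. Megf11, which encodes a protein with EGF-like repeats, had 14 and Kcnab2, a potassium channel subunit gene, 19, both in MIZ-1DPOZ alone.

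The other lists are set beside 3.70% and 12.7% of all protein-coding genes, and 26.0 and 103 peaks per Mb of coding sequence. Potassium channel genes had 5 and 25 of 94 (5.32% and 26.6%, 32.8 and 190.5 per Mb), with Kcnj14 at a pileup of 16 in MIZ-1DPOZ. Clustered protocadherins are adhesion proteins of neurons whose variable exons resemble each other. Of 58, 3 and 21 had a peak (5.17% and 36.2%, 19.5 and 136 per Mb). Pcdha9 and Pcdha5 led them with 23 and 18 in MIZ-1DPOZ, in windows that occur 7 times each. Giant cadherins had 1 and 4 of 9 (11.1% and 44.4%), but fewer peaks per Mb than all genes (9.70 and 58.2). Among them, Celsr3 had 11 and 14, and Fat3 12 in MIZ-1DPOZ alone. No coding-exon peak of either list lay in the 1423 olfactory and vomeronasal receptor genes, a count of 0 that allows a share of up to 0.211% of these genes; how much of their coding sequence the GC and promoter limits left eligible was not measured.

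Genes on the study's B cell receptor list held coding-exon peaks at about the rate of all genes. Of its genes matched here, 10 (3.91%) had one in MIZ-1WT and 37 (14.5%) in MIZ-1DPOZ, beside 3.70% and 12.7% of all protein-coding genes. Per Mb of coding sequence the list held 27.0 and 106 peaks, beside 26.0 and 103. The study compiled that list from public pathway collections and kept genes above an RNA level, not from the ChIP libraries. Of 44 B cell lineage and antigen receptor genes, 3 (6.82%) and 12 (27.3%) had one, above the shares of all genes. Their 3 MIZ-1WT and 17 MIZ-1DPOZ peaks came to 36.15 and 204.8 per Mb of coding sequence, also above the values over all genes. The strongest on these lists was Nod1, an intracellular receptor for bacterial peptidoglycan, with 9 in MIZ-1WT and 16 in MIZ-1DPOZ (ratio 1.33, 0.552 to 3.40). Nfatc2, a calcium-regulated transcription factor of lymphocytes, had 15 in a MIZ-1DPOZ peak that overlapped 2 MIZ-1WT peaks, with pileups of 9 (ratio 1.24, 0.510 to 3.22) and 13 (ratio 0.8605, 0.382 to 1.965).

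Further genes of these lists had a peak in MIZ-1DPOZ alone at the place named by the rule: Btrc, of the ubiquitin ligase for IκB, with 15, Sh2b2, a signalling adaptor gene, with 15, Nfkbib, an inhibitor of NF-κB, with 16, and Pag1, an adaptor of membrane rafts, with 13. Of 21 MYC and MIZ-1 partner genes, 3 (14.3%) and 4 (19.05%) had a coding-exon peak, beside 3.70% and 12.7% of all protein-coding genes. Per Mb of coding sequence they held 60.1 MIZ-1WT and 80.1 MIZ-1DPOZ peaks, beside 26.0 and 103 over all genes. Gfi1, a transcriptional repressor that acts with MIZ-1, had 18 in coding exon 3 in MIZ-1DPOZ and 13 in coding exon 4 in MIZ-1WT, in neighbouring peaks that did not overlap. Zbtb17 itself had a peak in both lists, in coding exon 4 of 14, with 8 fragments at chr4:141463702-141463849 in MIZ-1WT and 15 at chr4:141463667-141463869 in MIZ-1DPOZ (ratio 1.40, 0.557 to 3.81).

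Genes with a coding-exon peak also had promoter peaks more often than protein-coding genes overall. A promoter peak of the same list was found for 368 of 811 such genes in MIZ-1WT (45.4%, 42.0 to 48.8), beside 28% of all protein-coding genes, and for 1725 of 2773 in MIZ-1DPOZ (62.2%, 60.4 to 64.0), beside 44.8%. Their coding sequences were longer, with medians of 2127 and 2025 bp beside 1158 bp for all genes. The part of gene length in these shares was not tested.

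CpG content rose with GC. The median window held 11 CpG in MIZ-1WT (quartiles 8 and 17) and 9 in MIZ-1DPOZ (6 and 13), beside 4 (3 and 6) at coding exon midpoints. At 65% GC or more the medians were 15 and 13 beside 13, and at 60 to 65% GC 8 and 8 beside 7. At 55 to 60% GC they were 8 (n = 56) and 7 (n = 561) beside 5. The MIZ-1WT median was above that of midpoints in each of these classes, with overlapping quartiles. The MIZ-1DPOZ median equalled that of midpoints at 65% GC or more. Of the letter strings searched, CACGTG, the core of the E-box that MYC binds, was in 5.70% (4.37 to 7.39) of MIZ-1WT and 4.67% (4.024 to 5.404) of MIZ-1DPOZ windows, beside 3.61% of midpoint windows. At 65% GC or more these were 6.67% (4.81 to 9.17) and 4.64% (3.59 to 5.98) beside 5.62% (4.71 to 6.69). One copy stood in the Nfatc2 window printed above, starting at base 181. ATCGAT, a part of the motif reported for MIZ-1, was in 2 MIZ-1WT and 25 MIZ-1DPOZ windows, 0.219% (0.0601 to 0.795) and 0.694% (0.471 to 1.02), beside 1.36% of midpoint windows and 0.432% (0.228 to 0.820) of those with 65% GC or more. Both strings read the same on both strands and do not overlap each other. At 65% GC or more, ATCGAT was in 0.196% (0.0346 to 1.10) of MIZ-1WT and 0.414% (0.177 to 0.966) of MIZ-1DPOZ windows.

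Tandem repeats inside exons were a small but recurring feature. A window was counted when at least 55% of its bases equalled the base at some fixed distance of 2 to 60 further on. This held for 25 MIZ-1WT (2.74%, 1.86 to 4.01) and 76 MIZ-1DPOZ windows (2.11%, 1.69 to 2.63). At 60 to 65% GC it held for 2.99% (1.63 to 5.41) and 1.65% (1.15 to 2.36), beside 0.372% (0.275 to 0.503) of midpoint windows, and at 65% GC or more for 2.94% (1.79 to 4.80) and 3.31% (2.44 to 4.48), beside 1.39% (0.972 to 1.99). Among the 102 MIZ-1DPOZ peaks with a pileup of 20 or more the share was 12.7% (7.60 to 20.6). The leading examples were Prp2, a salivary proline-rich protein gene, with a pileup of 43 and 100% identity at a distance of 42 bases, Clca3b with 36 and 100% identity at 27 bases, and Sprr1b with 23. The summit sequence of Prp2 occurs 6 times in the genome, so these reads may come from any copy. Over all coding-exon peaks 96.5% of MIZ-1WT and 96.4% of MIZ-1DPOZ summits counted as single copy, beside 88.3% and 88.0% of intron peaks. That count rests on the median of 5 sequences around the summit, so a tandem repeat can pass it, as Sprr1b did.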

How the data were processed

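ChIP and input DNA from B220+ splenocytes were sequenced paired-end. The authors deposited 1 peak list per ChIP library on mm10, with fold enrichment (a ratio over the local background), −log10 p-value, −log10 q-value and a summit offset as the values. The labels name Bowtie2 2.2.6 and MACS2 2.1.0 and the study's methods name bwa and other MACS2 and trimming versions, so the aligner and caller version are uncertain. The q-value cutoff and total reads are not given in the sources used here. The input libraries were not analysed here on their own.

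Whole pileups and backgrounds were recovered from fold = (pileup + 1)/(background + 1) and the Poisson −log10 p-value for every peak (difference in p score under 0.001). Depth was taken as the most frequent background (0.860 and 1.348) divided by the smallest peak width (148 and 173 bp). The regions follow GENCODE M21 basic with 77200 start sites and the GRCm38 sequence. For each gene the APPRIS-ranked, then longest coding, transcript was used. A summit counted as single copy when the median of 5 sequences of 50 bases around it occurred once in the genome on both strands. The study's list of 267 BCR genes was matched by identifier.

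Overlap was at least 1 bp. Shares have 95% Wilson intervals, densities Poisson intervals and pileup ratios exact binomial intervals, all of which cover counting error only, and fragments without molecular identifiers are not independent molecules. No test between genotypes was possible with 1 ChIP library each. Scripts ran in Python 3.11.15 with scipy 1.17.1 and were tested on simulated scores. Genes named are the 6 with the largest −log10 q in each class among single-copy summits (shared peaks by the smaller value of the pair), the 5 with the highest ratio whose interval excludes 1 (no pair had an interval below 1), the 5 with the most positions, 8 of the B cell, BCR and MYC/MIZ-1 lists and 1 or 2 of each other list. Prp2 was named after its values were seen, and 1 gene that the rule selects is not reported here. The rule, gene lists and settings were chosen with earlier results of these data known.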

Additional observations from a re-analysis of the deposited data

How the results depend on the processing

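Of the 58 other settings run, 22 left a count within 1.5 times its value or a share, density or median within its counting interval; these include GC limits of 35% and 50%, the masking limit, the promoter windows, principal transcripts and single-copy summits for the counts, and single-copy summits for the overlap. At −log10 q of at least 5 the coding-exon peaks fell to 168 (MIZ-1WT) and 1645 (MIZ-1DPOZ), their density to 6.94 and 67.2 per Mb, and their medians became pileups of 11 and 14 and folds of 6.16 and 5.54. A fold limit of 5 left 372 and 1449. The share overlapping the other list became 34.0% and 8.80% with reciprocal overlap of 50%, 39.9% and 10.1% with summits within 100 bp, 42.9% and 4.07% at −log10 q of at least 5 in both lists, 35.2% and 8.90% with a fold limit of 5, and 24.97% and 20.4% with equal numbers of peaks. Shares over all peaks were not computed at these settings. By GC class from 40% upward the coding density was 0.231, 0.181, 1.60, 10.0, 136 and 754 per Mb in MIZ-1WT and 0.231, 1.27, 10.4, 99.6, 720 and 1786 in MIZ-1DPOZ. The median log2 pileup ratio was -0.12 with the ratio of backgrounds and 0.58 in pairs with a mean pileup of 15 or more. Excluding peaks near start sites of the comprehensive annotation, a setting chosen after seeing the data like the pileup limit, left 50.4% and 57.5% in internal exons. The causes were not tested beyond what each setting removes. Pileups near 10 limit every ratio at single positions, and no replicate could be left out. No paired analysis was possible because the design holds a single ChIP library per genotype.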
